A study of Sus scrofa with 70 samples.

Results

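Isoform usage was compared between the epididymis and the 3 accessory glands of the boar, as the share that each transcript takes of the summed TPM of its gene, TPM being an abundance scaled for transcript length and library size. Genes with at least 2 annotated transcripts and a summed TPM of at least 5 in each of the 24 libraries used were kept. This left 45584 transcripts of 4671 genes, out of 133722 transcripts of 35552 genes in the merged annotation. A share is given in percent of the gene's TPM and a difference in percentage points, so that a change in the level of the whole gene cancels out. At the edge of the gene filter, HNRNPLL had a lowest TPM of 5.002 and was kept, and ULK1 had 4.9997 and was left out.

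A gene makes several mRNAs by starting at different promoters, by including or skipping internal (cassette) exons, and by ending at different last exons or polyadenylation sites. These choices change the 5′ leader, the encoded protein or the 3′ end, and they are known to differ between epithelial and muscle cells. In the male tract, the epididymis is a long coiled duct whose epithelium matures and stores sperm and whose wall carries smooth muscle. The vesicular, prostate and bulbourethral glands are secretory glands that add fluid to semen.

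The libraries came from 12-month-old boars of the Banna mini-pig inbred line (BMI) and of the Diannan small-ear pig (DSE), from which BMI was bred. Each breed and gland had 3 RNA-seq libraries, which gave 6 for the epididymis (Epi), 6 for the vesicular gland (VG), 6 for the prostate gland (PG) and 6 for the bulbourethral gland (BG). The methods describe separate tissue samples, but nothing stated that the 3 of a group came from separate boars, so p-values measure the spread between these samples, which may be that within 1 animal. No treatment was given, and whole tissue was used. The labels name rRNA depletion for these libraries and the methods name poly-T beads, so how mRNA was selected cannot be settled here. TPM keeps no read depth, so the depth behind a share is unknown.

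The tissue labels were checked against marker genes. The summed TPM of 9 epididymal epithelium markers ran from 1264 to 39528 in the epididymis and stayed at or below 30.9 in the accessory glands. The epididymis libraries differed widely among themselves, and LCN8, a lipocalin of the epididymal epithelium, ran from 1.51 to 9677 TPM. Smooth muscle markers (6 genes, TAGLN highest) summed to 2351 to 24660 TPM in the epididymis, 649 to 5109 in VG, 214 to 4102 in PG and 152 to 654 in BG. Markers of spermatids and sperm (8 genes, PRM1 highest) summed to 12.3 to 1086 TPM in the epididymis and to at most 8.35 in the accessory glands. Fibroblast markers summed to 428 to 8619 TPM in the epididymis and 163 to 2766 in the accessory glands, and epithelial markers to 1230 to 2467 and 1055 to 2627. Leukocyte markers summed to 18.6 to 155 TPM in the epididymis against 17.4 to 349, endothelial markers to 37.1 to 391 against 17.7 to 131, and skeletal muscle markers to 2.54 to 689 against 0.749 to 1583. In bulk tissue, fewer cells of a type and less RNA per cell cannot be told apart, and this holds for every share below.

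DSE epididymis replicate 1 stood apart from the other libraries. Its shares had a mean correlation of 0.748 with the other epididymis libraries, against 0.884 to 0.902 for the other 5. On the first component of the shares, which held 34.9% of the variance, it lay at -22.2, and 5 more libraries lay below a line at -5 (BMI epididymis 3, DSE vesicular gland 1, BMI prostate gland 3, BMI and DSE bulbourethral gland 1 and 2). The mean transcript length, weighted by share, was 2473 bases in DSE epididymis replicate 1 and 2546 to 2597 bases in the other 5, against 2605 to 2654 bases in the remaining 18. In the study's quality control the libraries below the line also had the lowest median transcript integrity (TIN, a measure of RNA degradation) of their glands, and the one farthest apart had the lowest of all. The part of RNA integrity in the shares was not tested. For each kind of feature, total counts of calls are therefore also given without DSE epididymis replicate 1 and with the 18 libraries alone. The second set was chosen after seeing the data. Other counts are from all 24 libraries unless stated.

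**Figure D1:**
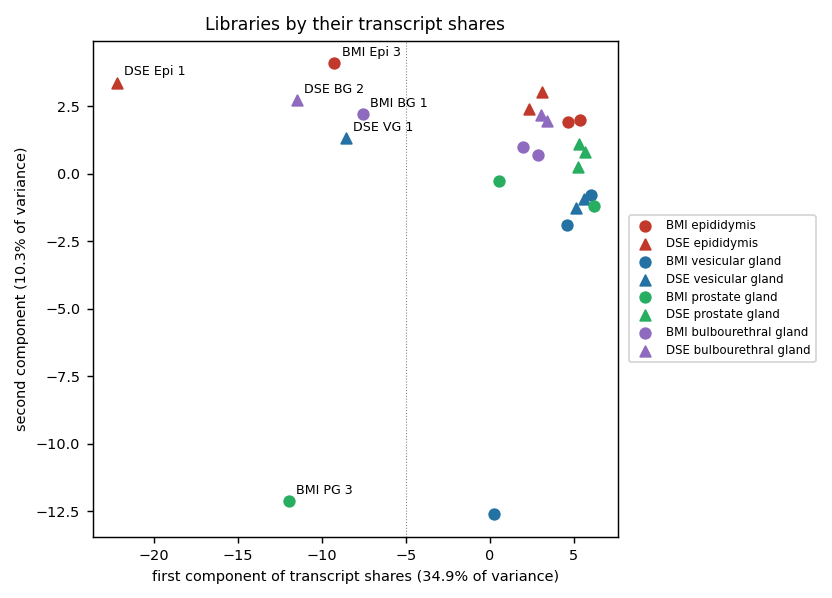
The first and second principal components of the transcript shares of the 24 libraries (x and y axes, component scores without a unit), with colours for glands and symbols for breeds. DSE epididymis replicate 1 lies farthest to the left at -22.2, and the dotted line at -5 separates the 6 named libraries from the other 18.

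The exons below are shown as examples of the differences in splicing described further on. Each is coding over its whole length and a multiple of 3 bases long, so that skipping it keeps the reading frame. Capitals mark the exon and lower case the 12 intron bases on each side, read on the gene's strand from the pig genome Sscrofa11.1 (RefSeq). ACTN1 (chr7:92554189-92554269, minus strand), FUBP1 (chr6:135289472-135289534, plus) and APP (chr13:189541274-189541330, minus) were named by rule. SORT1 (chr4:110785426-110785524, plus), CADM1 (chr9:42669051-42669083, minus), RBM39 (chr17:39054594-39054659, minus), the gene ENSSSCG00000007520, which RefSeq calls GNAS (chr17:59041468-59041512, plus), and VCL (chr14:76804160-76804363, plus) were chosen after their values were seen.
ACTN1: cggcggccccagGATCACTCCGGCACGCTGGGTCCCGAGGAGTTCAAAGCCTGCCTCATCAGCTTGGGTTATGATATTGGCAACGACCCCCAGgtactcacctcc
FUBP1: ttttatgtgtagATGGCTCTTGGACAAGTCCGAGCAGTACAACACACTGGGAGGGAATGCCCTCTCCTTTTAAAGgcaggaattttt
APP: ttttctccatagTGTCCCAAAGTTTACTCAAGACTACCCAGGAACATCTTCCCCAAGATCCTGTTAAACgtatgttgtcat
SORT1: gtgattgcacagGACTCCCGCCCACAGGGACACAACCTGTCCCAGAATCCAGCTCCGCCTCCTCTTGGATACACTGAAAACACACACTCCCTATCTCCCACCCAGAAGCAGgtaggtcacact
CADM1: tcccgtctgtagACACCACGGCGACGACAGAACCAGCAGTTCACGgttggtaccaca
RBM39: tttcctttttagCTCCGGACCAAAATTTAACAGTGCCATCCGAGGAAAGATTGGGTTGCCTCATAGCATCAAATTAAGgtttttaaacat
GNAS: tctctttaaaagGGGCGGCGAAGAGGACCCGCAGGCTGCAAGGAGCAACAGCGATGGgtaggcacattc
VCL: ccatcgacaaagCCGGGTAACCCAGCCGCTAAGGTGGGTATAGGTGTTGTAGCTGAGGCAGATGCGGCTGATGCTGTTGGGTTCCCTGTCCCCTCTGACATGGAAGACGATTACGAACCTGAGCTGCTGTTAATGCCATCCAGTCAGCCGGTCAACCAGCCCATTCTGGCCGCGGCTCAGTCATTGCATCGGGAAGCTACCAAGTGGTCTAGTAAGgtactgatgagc

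Of the 45584 transcripts, 26513 had a mean share below 2% and 19071 were tested. Between the epididymis and the mean of the accessory glands, 539 transcripts (2.83% of those tested) in 382 genes (8.18%) differed by at least 10 points at an adjusted p below 0.05 in limma. The share was higher in the epididymis for 277 transcripts (1.45%) and lower for 262 (1.37%). Against single glands, 629 transcripts (3.3%) differed from VG, 442 (2.32%) from PG and 442 (2.32%) from BG. These counts were 602, 464 and 492 of 19006 tested without DSE epididymis replicate 1, and 911, 483 and 494 of 22476 with the 18 libraries. Without DSE epididymis replicate 1, 513 of 19006 tested transcripts were called, 320 higher and 193 lower. The share of higher calls thereby moved from 51.4% to 62.4%. In that fit, 380 of the 539 were called again in the same direction. With the 18 libraries, 617 of 22476 tested transcripts were called, 355 higher and 262 lower, and 340 of the 539 were among them. More genes, 5593, passed the TPM filter in these 18 libraries.

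The 6 epididymis libraries lay on one side of all 18 others for 111 transcripts (0.582%). For 54 of these (0.283%), in 46 genes (0.985%), the transcript was also called against each of the 3 glands in the same direction. Of the 54, 26 were higher and 28 lower in the epididymis, and 45 met the same conditions without DSE epididymis replicate 1, where 63 did in all. With the 18 libraries, 107 of 22476 tested transcripts, in 86 genes, met them, 38 of the 54 among them. Fewer libraries make the absence of overlap easier to meet, here and in such counts below. Isoforms found by Iso-seq that Ensembl lacks made up 70.4% of the 54 and 68.7% of the tested transcripts. Transcripts with higher shares had a median length of 2576 bases and those with lower shares of 2680, and without DSE epididymis replicate 1 the medians were 2804 and 2722 bases.

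**Figure D2:**
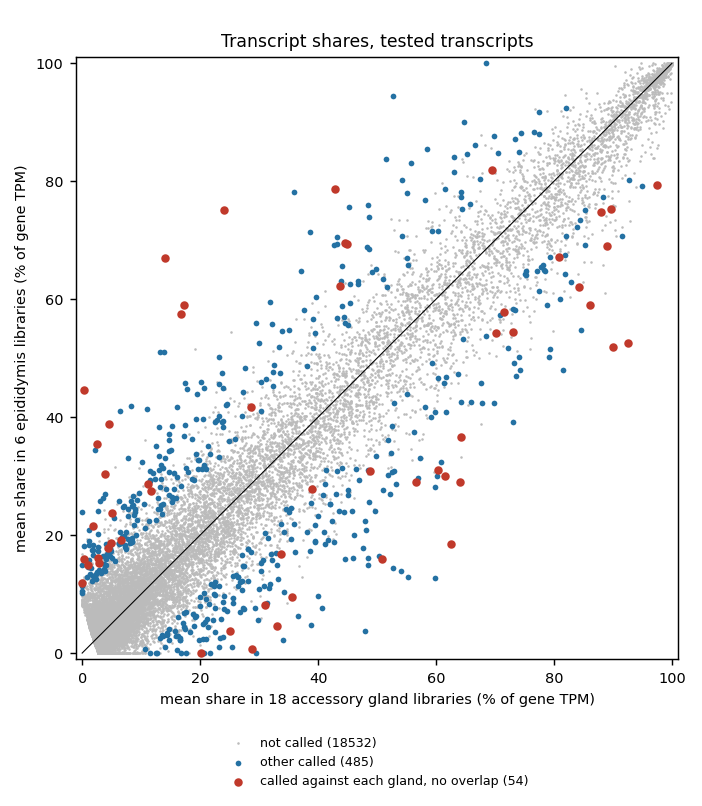
Mean share of each of the 19071 tested transcripts in the 18 accessory gland libraries (x axis, percent of gene TPM) and in the 6 epididymis libraries (y axis, percent). Red points are the 54 transcripts called against each gland without overlap, blue points are the other called transcripts, and the line marks equal shares.

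In 435 of the 4671 genes (9.31%), the transcript with the highest mean share was not the same in the epididymis and in the accessory glands, and in 40 (0.856%) both transcripts were called in opposite directions. These 40 included FBXO7, PISD, WDR13, CLN3, RABEP1, SYNGR1, APP and ACTN1. In 138 genes at least 1 transcript was called higher and at least 1 lower. Between the most raised and the most lowered of these, the first exon alone differed in 36.2%, the last exon alone in 15.2%, both in 9.42% and neither in 39.1%. The same shares over the pair of most used transcripts in 4207 genes were 37.3%, 20.6%, 13.0% and 29.1%. Where both had a coding sequence, it differed in 108 of 135 pairs (80%), against 84.0% in that wider set.

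Alternative first exons were called for 291 of 9006 tested (3.23%), 144 higher (1.6%) and 147 lower (1.63%) in the epididymis, in 187 genes (4.93%). Without DSE epididymis replicate 1 there were 267 of 9003 tested, and with the 18 libraries 340 of 10250. For 24 first exons (0.266%) in 17 genes (0.449%) the difference held against each gland without overlap of libraries, and WDR13, GPKOW, PISD and FBXO7 had the largest ones. This count was 31 without DSE epididymis replicate 1, 37 without DSE epididymis replicate 2 and 58 with the 18 libraries, of which 19 were among the 24.

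WDR13 encodes a protein of WD repeats and lies on the X chromosome. Its upstream first exon (chrX:42715105-42715174) was used at 66.2% to 91.7% in the epididymis (median 75.8%) and at 0% to 51.0% in the accessory glands (median 12.7%). The groups did not overlap, and the usage was higher by 59.7 points (SE 5.76, adjusted p = 5.76e-06). Libraries of PG and BG reached 0, and the accessory library nearest to the epididymis was DSE bulbourethral gland replicate 2 at 51.0%. The main transcript of this start, PB.21254.3, took 57.1% to 81.1% in the epididymis (median 65.0%) against 0% to 46.9% (median 12.5%). It has 512 codons, 394 in the most lowered transcript PB.21254.10, which starts 7969 bases downstream. That one took 1.004% to 8.11% in the epididymis and 5.63% to 37.3% in the accessory glands, and was lower by a difference of -17.9 points (SE 3.36, adjusted p = 0.00351). Against VG alone PB.21254.10 was not called (adjusted p = 0.240). Full-length reads put PB.21254.3 at 26 of 72 in the epididymis and at 2 of 129 in the accessory glands, but PB.21254.10 at 6 of 72 and 11 of 129, which are nearly equal shares.

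PISD encodes the mitochondrial enzyme that makes phosphatidylethanolamine from phosphatidylserine. Its downstream first exon (chr14:48313041-48313185) was used at 65.6% to 86.1% in the epididymis (median 74.5%) and at 8.29% to 43.8% in the accessory glands (median 27.8%). No accessory library reached the lowest epididymis library, and the difference was 47.6 points (SE 3.57, adjusted p = 1.39e-06). The transcript PB.6109.171 from this exon took 40.6% to 65.1% in the epididymis (median 60.4%) against 0% to 29.5% (median 18.1%), higher by 40.7 points. PB.6109.187, which starts 28632 bases upstream and encodes 410 rather than 375 codons, took 4.50% to 31.8% (median 13.0%) against 28.3% to 74.3% (median 56.8%), with a difference of -40.1 points (SE 4.72, adjusted p = 5.64e-05). Its groups overlapped between 28.3% and 31.8%. PISD as a whole had a median of 138 TPM in the epididymis and 18.4 to 21.3 in the 3 glands. Among full-length reads, PB.6109.171 held 349 of 439 in the epididymis and 48 of 212 in the accessory glands, and PB.6109.187 held 31 and 121 of these.

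FBXO7, a subunit that gives a ubiquitin ligase its substrates, shifted between a pair of first exons that lie close together. The upstream one (chr5:12525806-12526232) was used at 15.6% to 53.2% in the epididymis (median 44.4%) and at 68.3% to 95.7% in the accessory glands (median 87.7%). Its use was lower in the epididymis, with a difference of -44.6 points (SE 4.53, adjusted p = 1.06e-05) and no overlap. The Ensembl transcript ENSSSCT00000000164 of this exon, with 528 codons, took 0% to 28.7% in the epididymis (median 21.98%) against 38.3% to 79.0% (median 63.9%). PB.14294.11, with 449 codons, took 21.6% to 66.1% (median 36.9%) against 0% to 16.3% (median 4.12%). The difference of the latter was 34.2 points with all libraries and 26.9 points without DSE epididymis replicate 1, where it was called as well. Full-length reads of ENSSSCT00000000164 were 25 of 41 in the epididymis and 117 of 168 in the accessory glands, and those of PB.14294.11 were 3 of 41 and 5 of 168, smaller shifts than in the short reads.

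GPKOW encodes a protein of the spliceosome. The 22-base first exon of PB.21268.50 (chrX:43191927-43191948) was used at 59.6% to 86.4% in the epididymis (median 78.0%) and at 0% to 53.8% in the accessory glands (median 22.7%). Accessory libraries scattered widely, some of each gland being at 0, and none reached 59.6%. The difference was 51.1 points (SE 9.19, adjusted p = 0.00247). This start lies 96 bases upstream of that of PB.21268.52, which took 0.853% to 12.8% against 7.23% to 51.4% (difference -15.4 points, adjusted p = 0.0331) and was not called against VG or BG alone. Without DSE epididymis replicate 1 the adjusted p of PB.21268.52 was 0.0669, with the replicate number as a block it was 0.0591, and over the alternatives tried its call was lost most often among the named transcripts. As a gene, GPKOW had a median of 23.1 TPM in the epididymis, 8.70 in VG, 12.2 in PG and 15.1 in BG. It had 7 full-length reads in the epididymis and 32 in the accessory glands, of which PB.21268.50 held 1 each.

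UBXN6, a cofactor of the ATPase p97, had 1 dominant transcript in the accessory glands by its TPM. PB.10696.2 took 78.3% to 97.5% there (median 94.8%) and 27.8% to 75.3% in the epididymis (median 49.4%), with a difference of -40.0 points (SE 4.25, adjusted p = 2.00e-05). PB.10696.15, from a first exon 8229 bases downstream, took 9.72% to 19.0% in the epididymis (median 15.9%) and was listed at 0 in each PG and BG library. VG held it at 0.638% to 6.42%. Its difference was 13.8 points (SE 1.14, adjusted p = 9.08e-07). Full-length reads held little of PB.10696.2, 0 of 36 in the epididymis and 1 of 12 in the accessory glands, against 13 of 36 and 2 of 12 for PB.10696.15. In the testis libraries PB.10696.15 took at most 0.558%.

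Both CLN3 and RABEP1 act in the endosome and lysosome system, CLN3 as a membrane protein of lysosomes and RABEP1 as an effector of the early endosome GTPase RAB5. CLN3 transcript PB.11779.2 took 16.2% to 55.2% in the epididymis (median 33.7%) and 0% to 10.02% in the accessory glands (median 0%), higher by 32.9 points (SE 3.72, adjusted p = 3.65e-05). PB.11779.16 took 1.60% to 18.2% (median 6.14%) against 13.5% to 63.7% (median 41.6%), lower by a difference of -33.1 points. The first of these was free of overlap, while the second overlapped with the accessory glands. Both have the same number of codons, 439, and their starts lie 2551 bases apart. Full-length reads gave 13 of 43 against 0 of 23 for PB.11779.2 and 2 of 43 against 6 of 23 for PB.11779.16. RABEP1 transcript ENSSSCT00000041362, from the most upstream start, took 0% to 16.2% in the epididymis (median 0%) against 19.5% to 51.3% (median 33.3%), with a difference of -28.5 points (SE 2.95, adjusted p = 1.47e-05). PB.3917.9, which starts 139138 bases downstream of it, took 29.3% to 65.5% (median 49.7%) against 0% to 51.8% (median 20.4%), higher by 27.1 points (adjusted p = 0.0122). Its groups overlapped, it was not called against PG or BG alone, and without BMI epididymis replicate 3 its adjusted p was 0.0546. PB.3917.9 had 0 of 14 and 2 of 60 full-length reads.

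**Figure D3:**
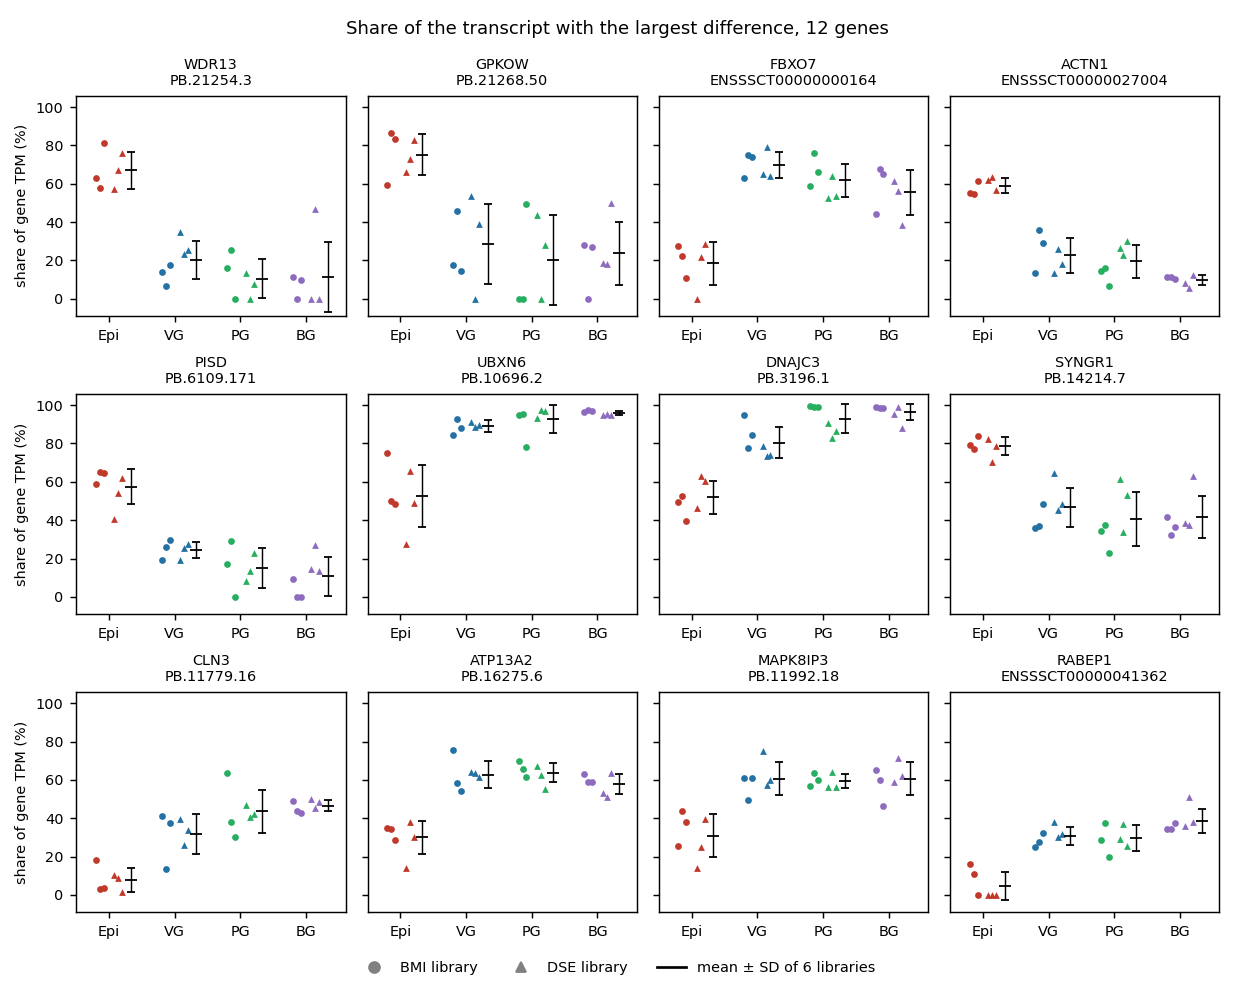
Share in percent of gene TPM (y axis) of the transcript with the largest difference in each of the 12 genes named by rule, by gland (x axis). Circles are BMI and triangles DSE libraries, and the black bars give the mean and SD of 6 libraries. In 11 of the 12 panels the epididymis libraries lie on one side of the 18 accessory gland libraries, as with PISD at 40.6% to 65.1% against 0% to 29.5%, and for CLN3 they overlap (1.60% to 18.2% against 13.5% to 63.7%).

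Alternative last exons were called for 181 of 7434 tested (2.43%), 93 higher (1.25%) and 88 lower (1.18%), in 116 genes (3.22%). There were 189 of 7492 tested without DSE epididymis replicate 1 and 191 of 9122 with the 18 libraries. The call held against each gland without overlap for 14 last exons (0.188%) in 9 genes (0.25%). It did for 19 without DSE epididymis replicate 1, 25 without BMI epididymis replicate 1, 28 without BMI epididymis replicate 2 and 36 with the 18 libraries, the last including 11 of the 14. Of the 14, 2 lay in ENSSSCG00000033189 on chromosome 13, a gene without a symbol whose transcripts RefSeq splits between FAM3D, a secreted protein, and FAM107A. Its FAM3D last exon took 60.7% to 96.5% in the epididymis (median 83.0%) and 0% to 40.9% in the accessory glands (median 1.21%). That difference of 74.7 points therefore sets neighbouring genes against each other rather than isoforms of 1 gene, and the gene was seen to be so after its values. The same holds for 2 of the 54 transcripts and 2 of the 24 first exons counted above, and for 1 of the 40 genes whose most used transcripts were called in opposite directions.

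SYNGR1, a membrane protein of small vesicles, had a short and a long 3′ end. The last exon of PB.14214.7 (chr5:8877409-8877675) took 70.2% to 83.8% in the epididymis (median 79.0%) and 22.9% to 64.7% in the accessory glands (median 38.1%). Its groups did not overlap, and the usage was higher by 35.7 points (SE 4.29, adjusted p = 5.45e-05). PB.14214.7 is 873 bases long with 192 codons, and ENSSSCT00000024540, lower by a difference of -34.9 points, is 4457 bases long with 235 codons. Full-length reads did not show this shift, with PB.14214.7 at 1 of 25 in the epididymis and 5 of 92 in the accessory glands. In the testis libraries the share of PB.14214.7 was 92.9% to 97.4%.

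DNAJC3 encodes a co-chaperone of the endoplasmic reticulum. The transcript PB.3196.1, of 5305 bases, took 39.3% to 62.8% in the epididymis (median 51.3%) and 73.7% to 99.5% in the accessory glands (median 92.8%). It was lower without overlap, by a difference of -38.1 points (SE 2.63, adjusted p = 1.48e-07). PB.3196.4, of 2011 bases and with a further splice in the last exon, rose from 0% to 25.1% (median 5.15%) to 23.8% to 60.1% (median 42.9%). The difference of PB.3196.4 was 48.2 points in BMI and 19.1 in DSE. Full-length reads again ran the other way, with PB.3196.1 at 54 of 64 in the epididymis and 194 of 260 in the accessory glands. PB.3196.4 had 0 of 64 and 1 of 260 full-length reads, and the limit that a count of 0 allows is 3 of 64.

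MAPK8IP3 is a scaffold of JNK signalling that also links cargo to kinesin. Its last exon of the full-length form (chr3:40196877-40198387) took 52.9% to 84.2% in the epididymis (median 63.7%) and 22.7% to 47.4% in the accessory glands (median 36.4%), higher by 29.3 points (SE 3.61, adjusted p = 6.79e-05). No library of one group fell into the range of the other. The short transcript PB.11992.18, of 5 exons and 333 codons, took 14.3% to 43.9% (median 31.7%) against 46.3% to 75.2% (median 59.97%). Full-length reads did not show this shift and held little of PB.11992.18, 1 of 26 in the epididymis and 1 of 75 in the accessory glands. The 32-exon ENSSSCT00000008786 had 15.9% to 34.4% against 0% to 21.7%, at an adjusted p of 0.0703.

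MYL12B (MRLC2 in RefSeq), a regulatory light chain of non-muscle myosin, used the last exon at chr6:103359607-103359645 at 50.03% to 68.2% in the epididymis (median 59.4%) and 78.4% to 95.4% in the accessory glands (median 85.8%). The difference was -26.9 points (SE 2.07, adjusted p = 2.36e-07), without overlap. This exon lies 31784 bases outside the RefSeq gene, and the transcripts joined under MYL12B in the merged annotation span 2362057 bases against 17649 in RefSeq, so it may not be an exon choice of 1 gene. PB.16603.19, the transcript that carries it, had 0 of 78 full-length reads in the epididymis and 2 of 113 in the accessory glands, far below its short-read share. OSBPL1A, an oxysterol-binding protein of late endosomes, used its distal last exon (chr6:108997734-108998964) at 60.9% to 77.5% against 90.2% to 97.3%, with medians of 75.6% and 93.1%. This difference was -19.8 points (SE 1.58, adjusted p = 3.58e-07). The OSBPL1A transcript PB.16656.42, which ends earlier, took 14.2% to 37.9% in the epididymis and 1.58% to 8.71% in the accessory glands, with 1 of 15 and 3 of 176 full-length reads.

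Cassette exons had the highest share of tested features called, though not the highest count. They also passed a further filter, a TPM of including plus skipping transcripts of at least 5 in each library. Their share is therefore not directly comparable with those of the other kinds. Of 2747 tested, 195 were called (7.1%) in 180 genes (9.7%), 91 with higher (3.31%) and 104 with lower inclusion (3.79%) in the epididymis. Leaving out DSE epididymis replicate 1 gave 185 calls of 2783 tested, 154 of them among the 195, and the 18 libraries gave 210 of 3752. For 21 exons (0.764%), in 21 genes (1.13%), the call held against each gland without overlap. Without DSE epididymis replicate 1 it did for 25 exons, and with the 18 libraries for 42 exons in 41 genes, 16 of the 21 among them. The share of exons with a length in multiples of 3 was 52.8% of those tested, 69.2% of those with higher and 57.7% of those with lower inclusion.

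ACTN1, alpha-actinin, crosslinks actin filaments, and its forms in smooth muscle and in other cells are known to differ in an exon near the calcium-binding EF hands. Inclusion of the 81-base exon printed above was 24.2% to 36.7% in the epididymis (median 31.6%). It was 50.7% to 82.2% in VG (median 63.2%), 61.9% to 88.1% in PG (median 71.8%) and 83.4% to 90.3% in BG (median 85.7%). The epididymis had the lowest and BG the highest inclusion, and the difference from the accessory glands was -43.7 points (SE 3.33, adjusted p = 1.94e-07). It was -44.6 points in BMI and -42.8 in DSE. ENSSSCT00000027004, which lacks the exon, took 54.6% to 63.5% in the epididymis (median 59.2%) and 5.77% to 35.8% in the accessory glands (median 13.8%). ENSSSCT00000103147, which has it, took 22.2% to 34.2% (median 29.2%) and 46.6% to 73.1% (median 67.2%). The pair does not differ by this exon alone. ENSSSCT00000027004, of 896 codons, also has internal exons of 37, 25, 94, 58, 56 and 78 bases that ENSSSCT00000103147, of 807 codons, lacks. Inclusion rests on 1 including and 4 skipping transcripts. Full-length reads with the exon were 0 of 2 in the epididymis and 0 of 2 in the accessory glands, too few to compare.

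SMTN, smoothelin, is a structural protein of contractile smooth muscle. Its 165-base exon (chr14:47899268-47899432) was included at 20.1% to 43.9% in the epididymis (median 27.2%), 47.3% to 63.3% in VG, 45.3% to 59.0% in PG and 75.0% to 96.5% in BG. The epididymis came closest to PG, between 43.9% and 45.3%, and BG stood highest. Inclusion was lower in the epididymis by a difference of -33.6 points (SE 3.27, adjusted p = 1.85e-06). Against VG and PG alone the differences were -22.3 and -21.3 points. The full-length reads showed a smaller shift, 195 of 206 in the epididymis and 311 of 312 in the accessory glands.

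These genes belong to a list of 31 contractile and cytoskeletal genes, of which 18 were tested and 5 had a called transcript (27.8%, against 8.18% of all genes tested). Of 117 transcripts tested in the 18 genes, 11 were called, 7 higher and 4 lower in the epididymis, against 2.83% of all transcripts tested. A gene with more tested transcripts has more chances of a call, here and in the lists below. The median over the 18 genes of the largest difference was 9.60 points, and over all genes it was 5.62 points. Beside ACTN1 and SMTN, the 5 were TPM1, VCL and LMO7. Without DSE epididymis replicate 1, the TPM1 transcript PB.766.30 (10.2 points) and a called TPM1 cassette exon (-27.0 points) were not called.

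TPM1, tropomyosin 1, has an upstream start that gives the long tropomyosins of muscle and an internal start that gives short ones. The short form PB.766.10, with 249 codons, was listed at 0 in 5 of the 6 epididymis libraries and at 4.64% in DSE replicate 1, and took 9.003% to 50.3% in the accessory glands (median 29.3%). It was lower by a difference of -28.1 points (SE 4.47, adjusted p = 0.000938). PB.766.3, with 310 codons, took 0.0515% to 28.5% in the epididymis (median 13.9%) and was listed at 0 in 17 of 18 accessory libraries. Its difference of 11.9 points (adjusted p = 0.00923) fell under 10 points without BMI epididymis replicate 2, where it was 8.43. With the 18 libraries PB.766.3 was not called either (10.95 points, adjusted p = 0.126). Full-length reads of PB.766.10 were 34 of 923 in the epididymis and 289 of 763 in the accessory glands, and those of PB.766.3 were 2 of 923 and 0 of 763.

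VCL, vinculin, anchors actin at cell junctions, and the 204-base exon printed above is the one that makes metavinculin, the form of muscle. Its inclusion was 8.46% to 67.4% in the epididymis (median 41.0%), 2.62% to 23.9% in VG (median 13.7%), 0% to 26.9% in PG (median 18.6%) and 0% to 3.06% in BG (median 0.441%). The groups overlapped, since the lowest epididymis library lay within the range of VG and PG. Inclusion was higher in the epididymis by 31.0 points (SE 4.83, adjusted p = 0.000238). Among full-length reads, 52 of 228 carried the exon in the epididymis and 63 of 677 in the accessory glands. The transcript ENSSSCT00000011289, which includes it, took 3.002% to 33.1% against 0% to 2.80%, and its difference of 15.7 points fell to 7.72 with the 18 libraries, where it was not called. PB.6417.1, which lacks it, took 0% to 71.7% against 0% to 88.3% (adjusted p = 0.0519).

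Values of these genes were also set beside the smooth muscle markers. Their summed TPM in 7 accessory libraries, 4 of VG and 3 of PG, and in 2 epididymis libraries lay between 2351 and 5109. In this range, inclusion of the ACTN1 exon was 50.7% to 72.8% in the 7 accessory libraries and 24.2% to 33.9% in the 2 of the epididymis. Of these 2, the one at 24.2% was DSE epididymis replicate 1, which stood apart in its shares, so that without it the range holds BMI epididymis replicate 2 alone, at 33.9% for ACTN1, 38.1% for SMTN and 0% for the short TPM1 form. In the 11 accessory libraries with lower sums it was 70.8% to 90.3%. The SMTN exon stood at 47.3% to 63.3% and 25.4% to 38.1% within that range, and the short TPM1 form at 9.003% to 29.03% and 0% to 4.64%. How far the amount of smooth muscle in the tissue sets these values over all libraries was not tested.

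**Figure D4:**
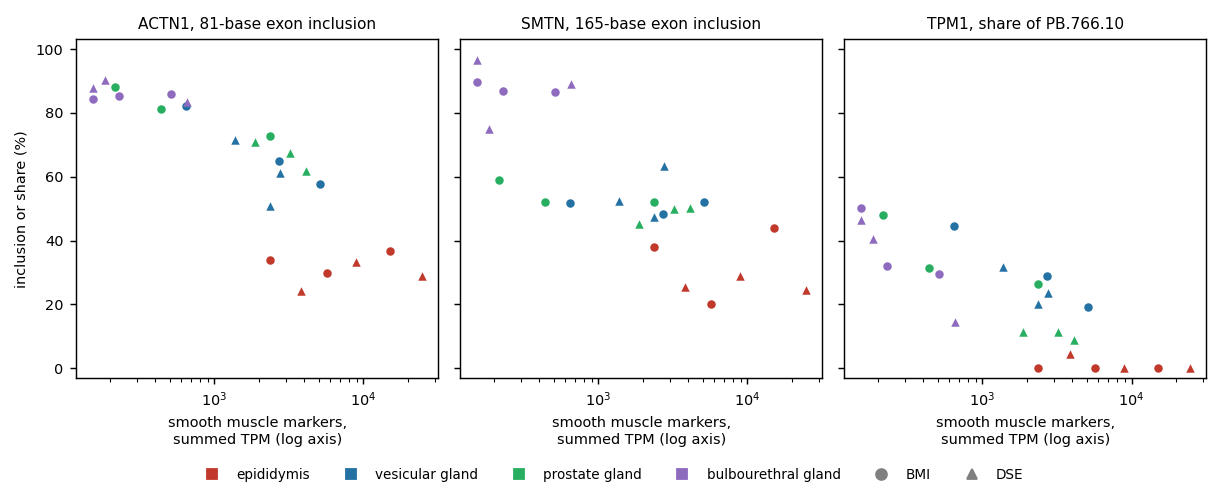
Inclusion of the 81-base ACTN1 exon, inclusion of the 165-base SMTN exon and share of the short TPM1 transcript (y axis, percent) in each library, against the summed TPM of 6 smooth muscle markers (x axis, log scale). Colours are glands and symbols are breeds. For ACTN1 and SMTN the 2 epididymis libraries between 2351 and 5109 TPM lie below the 7 accessory libraries of that range.

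APP, the amyloid precursor protein, is a membrane protein cleaved in many tissues, and the 57-base exon printed above is 1 of its known alternative exons. Inclusion was 46.8% to 65.0% in the epididymis (median 61.0%), 13.2% to 46.8% in VG (median 31.4%), 14.7% to 23.7% in PG (median 19.6%) and 13.6% to 26.4% in BG (median 19.9%). The highest VG library lay just under the lowest epididymis library, and PG and BG lay well below. Inclusion was higher in the epididymis by 35.6 points (SE 2.98, adjusted p = 3.91e-07), by 35.3 points in BMI and 35.9 in DSE. The full-length reads carried the exon in 260 of 260 cases in the epididymis and 411 of 413 in the accessory glands, and so did not show skipping at the level of the short reads.

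FUBP1, a nucleic acid binding protein that activates MYC transcription, included its 63-base exon at 36.3% to 72.2% in the epididymis (median 52.1%) and at 4.18% to 35.4% in the accessory glands (median 15.1%). No overlap was seen, although the nearest PG library came within 1 point. The difference was 35.9 points (SE 3.91, adjusted p = 5.86e-06), with 27.3 points in BMI and 44.6 in DSE. Of the full-length reads, 18 of 47 and 44 of 287 included it.

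ZFP2, a zinc finger gene that RefSeq lists without this symbol, included a 91-base exon (chr2:79532144-79532234) at 52.2% to 81.2% in the epididymis and 18.7% to 47.1% in the accessory glands, higher by 27.4 points (SE 3.77, adjusted p = 8.73e-05). Each of its 76 and 204 full-length reads had the exon, so they gave no difference. TMEM54, a transmembrane protein, included a 109-base exon (chr6:89197451-89197559) at 1.40% to 5.70% in the epididymis (median 4.79%) and 13.3% to 48.5% in the accessory glands (median 29.7%). It was lower by a difference of -26.4 points (SE 3.83, adjusted p = 0.000143), and neither exon is a multiple of 3 bases.

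**Figure D5:**
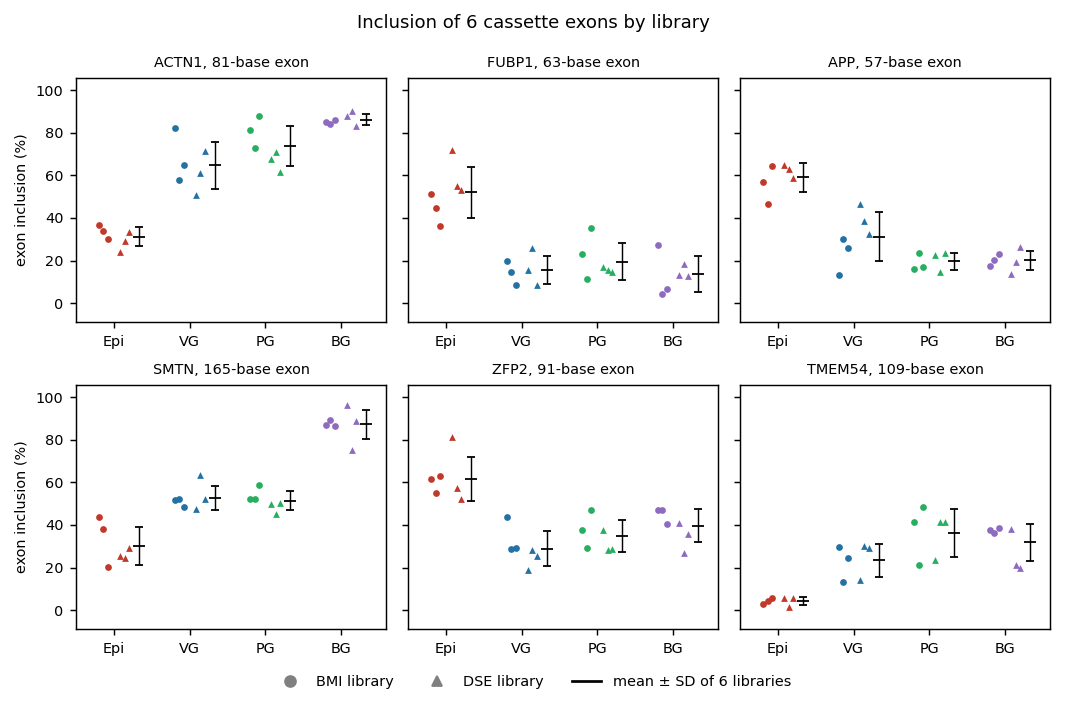
Inclusion in percent (y axis) of the 6 cassette exons named by rule in each library, by gland (x axis). Circles are BMI and triangles DSE libraries, and the black bars give the mean and SD of 6 libraries. The epididymis lies below the accessory glands for ACTN1, SMTN and TMEM54 and above them for FUBP1, APP and ZFP2.

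ATP13A2, a lysosomal polyamine transporter, differed by 1 internal exon of 117 bases. PB.16275.6, with the exon and 1175 codons, took 13.9% to 37.9% in the epididymis (median 32.2%) and 50.9% to 75.5% in the accessory glands (median 62.1%). It was lower without overlap, by a difference of -31.5 points (SE 3.38, adjusted p = 2.10e-05). PB.16275.21, without it, took 13.7% to 33.5% (median 22.8%) against 0% to 15.3% (median 4.21%), higher by 17.5 points. Full-length reads gave 44 of 123 against 85 of 149 for the first and 29 of 123 against 12 of 149 for the second.

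The remaining 15 of the 21 exons include several of the sequences printed above. SORT1, sortilin, sorts proteins to the lysosome, and its 99-base exon was included at 20.3% to 39.3% in the epididymis (median 35.6%) and 42.5% to 60.4% in the accessory glands (median 53.3%), lower by a difference of -18.5 points (SE 2.16, adjusted p = 1.38e-05). CADM1, a cell adhesion molecule, included its 33-base exon at 25.4% to 47.8% (median 34.7%) against 9.56% to 25.1% (median 14.5%), higher by 19.6 points (SE 2.60, adjusted p = 6.80e-05). Neither pair of groups overlapped, though the nearest CADM1 library of PG stood at 25.1%. The full-length reads ran in the same directions, 313 of 996 against 434 of 765 for SORT1 and 25 of 51 against 8 of 88 for CADM1.

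RBM39, a splicing factor, included its 66-base exon at 84.1% to 97.6% in the epididymis (median 93.7%) and 66.2% to 81.2% in the accessory glands (median 72.0%), higher by 18.7 points (SE 2.44, adjusted p = 5.93e-05). ENSSSCG00000007520, RefSeq's GNAS, encodes the stimulatory G protein alpha subunit, whose long and short forms are known to differ by the 45-base exon. The exon was included at 60.4% to 69.9% (median 65.9%) against 36.2% to 53.6% (median 46.0%), higher by 20.01 points (SE 2.05, adjusted p = 3.38e-06). These groups were free of overlap too, and the full-length reads were 142 of 151 against 352 of 461 for RBM39 and 182 of 243 against 209 of 337 for GNAS. The other exons apart from each gland were in YBX3, AAGAB (both higher), SRP54, KLC1, OPLAH, MAP4K4, B4GALT7, MAPKAP1, CSNK1D, HNRNPA2B1 and ENSSSCG00000056738 (lower). Of the 21, 19 met the same conditions without DSE epididymis replicate 1, where the CSNK1D exon was no longer called.

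Hexamers bound by splicing factors were counted in the 250 bases before and after the tested cassette exons, on the gene's strand only. TGCATG, of the RBFOX proteins, stood before 14.3% of exons with higher and 10.8% with lower inclusion, against 6.70% of all 2703 tested exons on chromosomes, and after 12.1%, 9.80% and 9.14%. ACTAAC, of QKI, stood before 6.59%, 5.88% and 3.37% and after 9.89%, 3.92% and 3.11%. CTCTCT, of PTBP1, stood before 25.3%, 19.6% and 16.4% and after 15.4%, 13.7% and 13.7%. Each of these counts is a description of 91 and 102 exons. Of the 8 exons printed above, ACTN1 had TGCATG and CTCTCT after it and APP had TGCATG after it. Before the exon, CADM1 had TGCATG, GNAS CTCTCT and VCL ACTAAC, and FUBP1, SORT1 and RBM39 had none of the motifs in either window. At the level of the gene, RBFOX2 had 14.4 to 69.6 TPM in the epididymis and 8.46 to 46.9 in the accessory glands, QKI had 9.61 to 59.7 against 3.85 to 28.3, and PTBP1 had 151 to 170 TPM against 84.5 to 149.

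In the other gene lists, the count of genes with a called transcript was small. Among splicing regulators, 4 of 29 tested genes had one (13.8%, against 8.18% of all genes). These 29 genes had 205 tested transcripts, of which 2 were called higher and 2 lower. That is a lower share of transcripts than the 2.83% called over all tested. ENSSSCT00000046386 of ESRP1, an epithelial splicing factor, had a mean share of 2.41% in the epididymis and 21.1% in the accessory glands, a difference of -18.6 points (SE 2.98, adjusted p = 0.000974). RBFOX2 had a transcript lower by a difference of -16.0 points, MBNL1 one higher by 10.4 and PTBP3 one higher by 10.1 (adjusted p = 0.0489), which was not called without DSE epididymis replicate 1. Called cassette exons of ESRP1 and MBNL1 differed by 14.7 and -17.1 points. HNRNPA2B1 also had a cassette exon of 1350 bases that was included at 63.3% to 77.8% in the epididymis and 85.4% to 99.4% in the accessory glands.

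Among genes known to be spliced by epithelial factors, 3 of 10 had a called transcript (30%, against 8.18% of all genes tested). Of their 66 tested transcripts, 2 were called higher and 2 lower. They were SCRIB, DNM2 and CTNND1, of cell polarity, endocytosis and adherens junctions. DNM2 transcript ENSSSCT00000042928 rose from a mean of 4.88% to 17.3%, by 12.4 points (SE 1.42, adjusted p = 3.82e-05). Called cassette exons were lower in DNM2, by differences of -14.3 and -13.7 points, and higher in SCRIB and CTNND1, by 17.9 and 11.5 points. TJP1, the tight junction protein ZO-1, had no called transcript, but its 240-base alpha exon was included at 24.1% to 56.2% in the epididymis (median 40.5%) and 26.9% to 83.2% in the accessory glands (median 73.1%). The difference was -26.4 points (SE 6.84, adjusted p = 0.0138), and the groups overlapped. Full-length reads with it were 20 of 34 and 179 of 231. The CTNND1 transcript was no longer called without DSE epididymis replicate 1.

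Of the ion and water transport genes, 2 of 8 had called transcripts (25%, against 8.18% of all genes tested), ATP6V1H and ATP1B1, a subunit each of the proton pump and of the sodium pump. The 8 genes had 32 tested transcripts, of which 2 were called higher and 2 lower. ENSSSCT00000006862 of ATP6V1H went from a mean of 48.5% in the accessory glands to 15.0%, lower by a difference of -33.5 points (SE 7.28, adjusted p = 0.00968). The other called transcripts of these genes, 3 in all, were not called without DSE epididymis replicate 1. Secretory path genes had 2 of 15 (13.3%, 70 transcripts tested), LMAN2 and MIA3, both higher, by 11.5 and 11.13 points. Endocytosis genes had 2 of 17 (11.8%, 71 transcripts tested), BIN1 and AP1B1, both higher, by 10.4 and 10.1 points. Both shares lie near the 8.18% of all genes. SEC31A, of the vesicle coat that leaves the endoplasmic reticulum, included a 342-base exon at 30.3% to 56.3% in the epididymis and 53.6% to 100% in the accessory glands, lower by a difference of -36.0 points (adjusted p = 0.000220), although 90 of 90 and 428 of 430 full-length reads had it. A pair of other SEC31A exons went the other way, higher by 14.8 points (adjusted p = 0.0208) and by 13.8 points (adjusted p = 0.0446), the second not called without DSE epididymis replicate 1. BIN1, which bends membranes, included a 108-base exon at 32.9% to 64.9% against 14.4% to 49.8%, higher by 17.1 points (SE 3.67, adjusted p = 0.00351), with 111 of 166 and 77 of 198 full-length reads. Without DSE epididymis replicate 1, the transcripts of BIN1 and AP1B1 were not called, while their exons still were.

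The full-length reads of Iso-seq came from 1 library per breed and gland, 231413 and 458697 reads in the epididymis and 263309 to 388569 in the accessory glands. They are other libraries than those of the short reads, but the isoforms were defined from them, and with pooled counts there is no replicate check. For 231 called Iso-seq isoforms whose gene had at least 20 reads in both pools, 177 differed in the same direction as the short reads (76.6%, Wilson 95% interval 70.8% to 81.6%, counting error alone). Over all 8216 such tested isoforms this was 59.4%. With at least 50 reads it was 79.7% of 143 called and 59.9% of 5010 tested isoforms. Of the 54 transcripts apart from each gland, 29 could be compared, Ensembl transcripts among them, and 20 ran in the same direction. This was 69.0% (Wilson 95% interval 50.8% to 82.7%), an interval that includes the 59.4% of tested isoforms. Among the 21 exons, 13 could be compared, 11 ran in the same direction, and ZFP2 and B4GALT7 gave no difference. The 11 include APP, with 260 of 260 against 411 of 413, a very small gap. A share over all tested cassette exons is not given.

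Testis libraries, which were not used to choose transcripts, gave another view because sperm markers were higher in the epididymis than in the accessory glands. The testis median lay past the accessory range on the side of the epididymis for 29 of the 54 transcripts apart from each gland (53.7%), against 38.4% of the 539 called and 14.04% of the 19071 tested. For the other 25 it lay within the accessory range. On the side away from the epididymis it lay for 0 of the 54, 5.38% of the 539 and 6.75% of the 19071. The 54 were chosen by the accessory range itself, so their share is not directly comparable with the others. PB.21268.50 of GPKOW took 62.9% to 95.9% in testis and PB.3196.4 of DNAJC3 32.8% to 60.9%. The epididymal start of WDR13 stood at 6.14% to 30.7% in testis and PISD's at 21.2% to 39.5%, both below each epididymis library. The part of sperm RNA in these shares was not tested.

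The breeds were compared by the difference between their contrasts. No transcript was called for it in limma (0%), with 977 of 19071 at an unadjusted p below 0.05. Leaving out single libraries gave 0 to 15 calls, 15 of them without DSE epididymis replicate 3. Planted breed differences of up to 40 points were found for 37% of 200 transcripts in simulated data, so such differences could be missed. A planted difference was smaller where the main transcript held a share below 40%. The largest gap among the named transcripts was that of PB.3196.4 of DNAJC3, given above.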

How the data were processed

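RNA-seq of the epididymis and the 3 accessory glands (24 libraries) and Iso-seq of the same glands (1 library per breed and gland) were used, grouped by the labels. The authors deposited TPM per transcript, computed with Salmon 1.9.0 on Ensembl transcripts of Sscrofa11.1 joined with their Iso-seq isoforms, and counts of full-length reads per isoform, deposited without normalization. The submitters' processing notes also name GSNAP, STAR 2.7.10a and Bowtie 1.3.1. Estimated shares of similar isoforms can trade reads, and isoforms outside the annotation are not seen.

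Shares were computed from TPM (Python 3.11.15, pandas 2.3.3) without a pseudocount and tested untransformed in limma 3.58.1 (R 4.3.3) with 8 means of breed and gland and moderated variances (trend, robust). Transcripts with a mean share of at least 2% were tested, and a call needed a Benjamini-Hochberg adjusted p below 0.05 and at least 10 points. First exons were grouped by donor site and last exons by acceptor site. Inclusion of cassette exons was the TPM of including over including plus skipping transcripts. The study's SUPPA2 was not used here. The fit was tested on simulated data of 4671 genes. Planted differences of up to 20 and up to 40 points, capped at the main transcript's share, were called for 54.5% and 79.5% of 200 transcripts. Genes were named by the largest differences among features called against each gland without overlap of libraries, in genes with a symbol (12 genes for transcripts, 6 for cassette exons, 4 each for first and last exons), and from gene lists under the same conditions. The members and lists were chosen with earlier results of these data known. Alternatives were a TPM minimum of 10 or 1, a pseudocount of 0.1 TPM, an arcsine transform, no trend, no minimum share, 20 points, a replicate block, medians and leaving out each library.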

Additional observations from a re-analysis of the deposited data

Results flagged for a closer look

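Among 172 groups of 6 libraries, 17 held a library far from the other 5, by a gap to its nearest neighbour of more than 0.625 of the group's range. Chance alone flags about 1 in 20 groups. In the mean correlation of shares with the other libraries of its gland, DSE epididymis replicate 1 stood low at 0.748 and BMI prostate gland replicate 3 at 0.824.

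DSE bulbourethral gland replicate 3 stood apart from its gland for SYNGR1, with PB.14214.7 and its last exon at 63.1% and ENSSSCT00000024540 at 31.7%. The same library stood apart for DNAJC3, with PB.3196.1 at 88.3%, and for VCL, with ENSSSCT00000011289 at 2.80%. DSE bulbourethral gland replicate 2 stood high for WDR13, with the upstream first exon at 51.0% and PB.21254.3 at 46.9%, and for RABEP1, with ENSSSCT00000041362 at 51.3%. BMI epididymis replicate 3 used the distal last exon of OSBPL1A least, at 60.9%. DSE epididymis replicate 1 was the epididymis library with the short TPM1 form PB.766.10 above 0, at 4.64%. BMI prostate gland replicate 2 was the accessory library with TPM1 PB.766.3 above 0, at 0.0374%. DSE vesicular gland replicate 2 stood high in its gland for the SMTN exon at 63.3%, BMI prostate gland replicate 3 low for UBXN6 PB.10696.2 at 78.3%, and DSE vesicular gland replicate 1 low for VCL PB.6417.1 at 34.6%. BMI prostate gland replicate 1 held ENSSSCT00000011289 of VCL at 1.80%.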

How the results depend on the processing

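With a gene TPM minimum of 10, the counts of calls were 335 transcripts against the accessory glands, 291 against PG and 287 against BG, and 155 first exons, 102 last exons and 97 cassette exons, from fewer genes tested. With a minimum of 1 they were 681 transcripts against BG, 482 first exons, 299 last exons and 357 cassette exons, and 2 transcripts for the difference between breeds. Asking for 20 points gave 164 transcripts against the accessory glands, 244 against VG, 189 against PG and 178 against BG, and 107 first exons, 43 last exons and 56 cassette exons. Without a minimum share, 418 transcripts were called against VG. Leaving out each library in turn gave 385 to 615 transcripts against the accessory glands, 440 to 783 against VG, 314 to 500 against PG and 323 to 492 against BG, 211 to 324 first exons, 136 to 213 last exons and 169 to 225 cassette exons, and 0 to 15 transcripts for the difference between breeds. The 18 libraries, chosen after seeing the data, gave 3 for the latter. Of 1414 alternative values of named features, 1328 kept their call and 18 lost it, 63 stayed uncalled and 5 gained a call, and 0 turned direction, with 14 more not tested. With the 18 libraries, VCL ENSSSCT00000011289 was not called, at 7.72 points, nor TPM1 PB.766.3, at an adjusted p of 0.126. Deviations of libraries with the same replicate number had a median correlation of 0.069 (lowest -0.52), with 13 of 36 above 0.1. For libraries with different numbers the median was -0.014, with 24 of 72 above 0.1. Whether libraries of the same number came from 1 boar cannot be told from these values. With the replicate block, 502 transcripts were called, 471 of them among the 539. The causes of these shifts were not tested. TPM keeps no depth, so shares of lowly expressed genes have an unknown counting error.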
